A study of Mus musculus with 20 samples.

Results

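The 40 genes described here carry a cell through DNA replication and division. They were taken by gene symbol from an expression table of 24795 genes, and 21 of them were set down as S phase genes and 19 as mitosis genes by the known role of their products. All 40 have a row in the table, and all 40 were among the 12433 genes that passed a filter on low values of at least 1 RPKM (reads scaled by transcript length and by the number of mapped reads) in at least 6 libraries.

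The series holds 20 mouse RNA sequencing libraries in 3 groups. There are 6 libraries from Apc Min mice treated with DM-aKG (called DM-aKG below), 7 from Apc Min mice that had the control treatment (called control) and 7 from untreated wild-type mice (called WT). The Apc Min allele is a germline mutation that truncates APC, a protein needed for the breakdown of beta-catenin, and heterozygous mice develop many adenomas of the intestine. DM-aKG stands for dimethyl alpha-ketoglutarate, an ester that crosses cell membranes and releases the citric acid cycle metabolite alpha-ketoglutarate. The labels give no dose, duration, route, age, sex or strain background, and they do not say which libraries come from separate animals or cultures, so p-values measure the spread between libraries, which may be partly technical. A low glutamine medium is named for all 20 libraries, so this label is shared by the 3 groups. Whether the samples were cultured is unclear, as their titles call them tissue.

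Proliferating intestinal cells sit in the crypt, where stem cells and their transit-amplifying daughters divide before they differentiate and move to the villus. At the start of S phase, E2F factors released from pocket proteins switch on the genes for origin licensing, the replication fork and nucleotide supply. Later in the cycle the MuvB complex, with B-Myb and FOXM1, drives the genes for mitotic kinases, spindle and kinetochore, whose promoters carry a CHR element, often with CCAAT boxes nearby. In adenomas that have lost APC, Wnt signalling stays on and cells keep crypt-like programmes.

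Titles call the material tissue, and the fields on culture call it intestinal organoids in organoid medium. The epithelial marker Epcam lay between 506 and 722 RPKM in DM-aKG, 696 and 978 RPKM in control and 810 and 1090 RPKM in WT libraries. The smooth muscle myosin Myh11 lay between 110 and 213 RPKM in DM-aKG, 36.8 and 140 RPKM in control and 123 and 194 RPKM in WT libraries, so muscle transcripts were present in all 20 libraries, as were transcripts of plasma cells, T cells, fibroblasts and endothelium. These are values of whole samples, in which fewer dividing cells and less RNA of a gene per dividing cell cannot be told apart. Each library held an estimated 21.2 to 29.3 M reads (M for mega), judged from the steps between low RPKM values, and 11015 to 12294 genes reached 1 RPKM.

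Promoters show what the 2 sets of genes share apart from their levels. RefSeq promoters of build GRCm38.p6, each from 250 bases before to 50 bases after a start, were matched for 19 of the 21 S phase genes (21 promoters) and 15 of the 19 mitosis genes (15 promoters), and were searched on both strands for an E2F motif (TTCCCGC or TTGGCGC), a CHR element (TTTGAA or TTCGAA) and a CCAAT box (CCAAT). An E2F motif was found in 12 of 21 S phase promoters (57.1%), 3 of 15 mitosis promoters (20%) and 11.3% of 12347 promoters of all genes tested. A CHR element was found in 4 of 21 S phase promoters (19%), 12 of 15 mitosis promoters (80.0%) and 14.0% of the promoters of all genes tested. A CCAAT box was in 57.1% of S phase promoters, 93.3% of mitosis promoters and 37.4% of all, and a CHR element and a CCAAT box together were in 14.3%, 80.0% and 5.63% of the same promoters. TTGGCGC can share letters with a CCAAT box on the other strand, and a match is a description of the sequence, not a shown binding site. The 3 S phase promoters below are those of the genes with the smallest p for DM-aKG over control that hold an E2F motif, which stands in capitals; they are Rfc3 (chr5:151651159-151651458, minus strand), Mcm7 (chr5:138171217-138171516, minus strand, 1 of its 2 promoters in the table) and Mcm3 (chr1:20820263-20820562, minus strand).
Rfc3: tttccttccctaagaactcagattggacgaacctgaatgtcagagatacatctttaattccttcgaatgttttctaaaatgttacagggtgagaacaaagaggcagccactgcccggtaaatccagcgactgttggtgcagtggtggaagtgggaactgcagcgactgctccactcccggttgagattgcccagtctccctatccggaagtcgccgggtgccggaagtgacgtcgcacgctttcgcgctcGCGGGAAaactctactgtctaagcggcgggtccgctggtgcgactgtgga
Mcm7: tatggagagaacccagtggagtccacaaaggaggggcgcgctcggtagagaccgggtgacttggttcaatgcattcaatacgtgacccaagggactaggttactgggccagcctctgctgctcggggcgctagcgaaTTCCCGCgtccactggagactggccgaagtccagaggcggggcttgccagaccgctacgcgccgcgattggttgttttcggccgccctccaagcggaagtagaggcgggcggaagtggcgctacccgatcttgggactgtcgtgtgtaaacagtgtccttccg
Mcm3: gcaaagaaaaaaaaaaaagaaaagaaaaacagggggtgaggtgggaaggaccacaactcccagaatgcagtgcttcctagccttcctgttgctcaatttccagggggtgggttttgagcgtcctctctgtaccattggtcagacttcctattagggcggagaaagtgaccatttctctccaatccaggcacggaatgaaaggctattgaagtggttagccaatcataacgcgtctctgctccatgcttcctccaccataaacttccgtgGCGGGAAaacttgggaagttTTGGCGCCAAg
Mcm3 has E2F letters at 2 places, and at the second they read on both strands. All 3 promoters also hold CCAAT boxes (1 in Rfc3, 1 in Mcm7 and 3 in Mcm3) and that of Rfc3 a CHR element, left here in lower case. The 3 mitosis promoters were chosen in the same way among those with a CHR element and a CCAAT box, both in capitals; they are Plk1 (chr7:122159185-122159484, plus strand), Cdk1 (chr10:69352863-69353162, minus strand) and Bub1 (chr2:127831810-127832109, minus strand).
Plk1: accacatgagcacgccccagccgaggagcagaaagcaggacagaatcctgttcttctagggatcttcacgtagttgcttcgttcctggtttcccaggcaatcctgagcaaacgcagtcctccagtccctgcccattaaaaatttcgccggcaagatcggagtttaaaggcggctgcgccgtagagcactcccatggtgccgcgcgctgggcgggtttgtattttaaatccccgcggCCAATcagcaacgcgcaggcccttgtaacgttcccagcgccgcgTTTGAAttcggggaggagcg
Cdk1: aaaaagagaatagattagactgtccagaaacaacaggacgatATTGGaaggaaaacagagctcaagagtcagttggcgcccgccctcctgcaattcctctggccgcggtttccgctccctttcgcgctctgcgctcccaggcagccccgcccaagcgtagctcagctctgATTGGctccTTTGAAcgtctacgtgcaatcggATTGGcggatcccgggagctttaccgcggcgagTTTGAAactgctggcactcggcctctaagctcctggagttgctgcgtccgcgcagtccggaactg
Bub1: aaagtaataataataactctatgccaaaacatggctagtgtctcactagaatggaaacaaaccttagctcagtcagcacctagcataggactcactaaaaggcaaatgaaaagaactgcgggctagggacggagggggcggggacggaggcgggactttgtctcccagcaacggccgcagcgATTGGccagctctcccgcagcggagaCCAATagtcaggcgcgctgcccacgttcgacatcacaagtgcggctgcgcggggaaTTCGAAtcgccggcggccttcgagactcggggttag
In Plk1, Cdk1 and Bub1 alike the last CHR element lies between a CCAAT box and the end of the window, and Cdk1 also holds an E2F motif, left here in lower case.

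Per unit of transcript length, Pcna, the sliding clamp that holds polymerases on DNA, was the highest in all 3 groups (37.2 ± 6.77 RPKM in DM-aKG, 58.8 ± 14.5 RPKM in control and 46.7 ± 5.39 RPKM in WT; mean ± SD, n = 6, 7 and 7). The licensing factor Cdc6 was the lowest, at 0.46 ± 0.255 RPKM in DM-aKG, 0.92 ± 0.504 RPKM in control and 1.0 ± 0.308 RPKM in WT. The DM-aKG group had the lowest mean of the 3 groups in 18 of 21 S phase genes and in 19 of 19 mitosis genes, the exceptions being Cdt1, Rfc3 and Rrm2, which were lowest in WT. The highest mean was in control for 12 S phase genes and in WT for 9, and in control for 6 mitosis genes and in WT for 13.

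**Figure D1:**
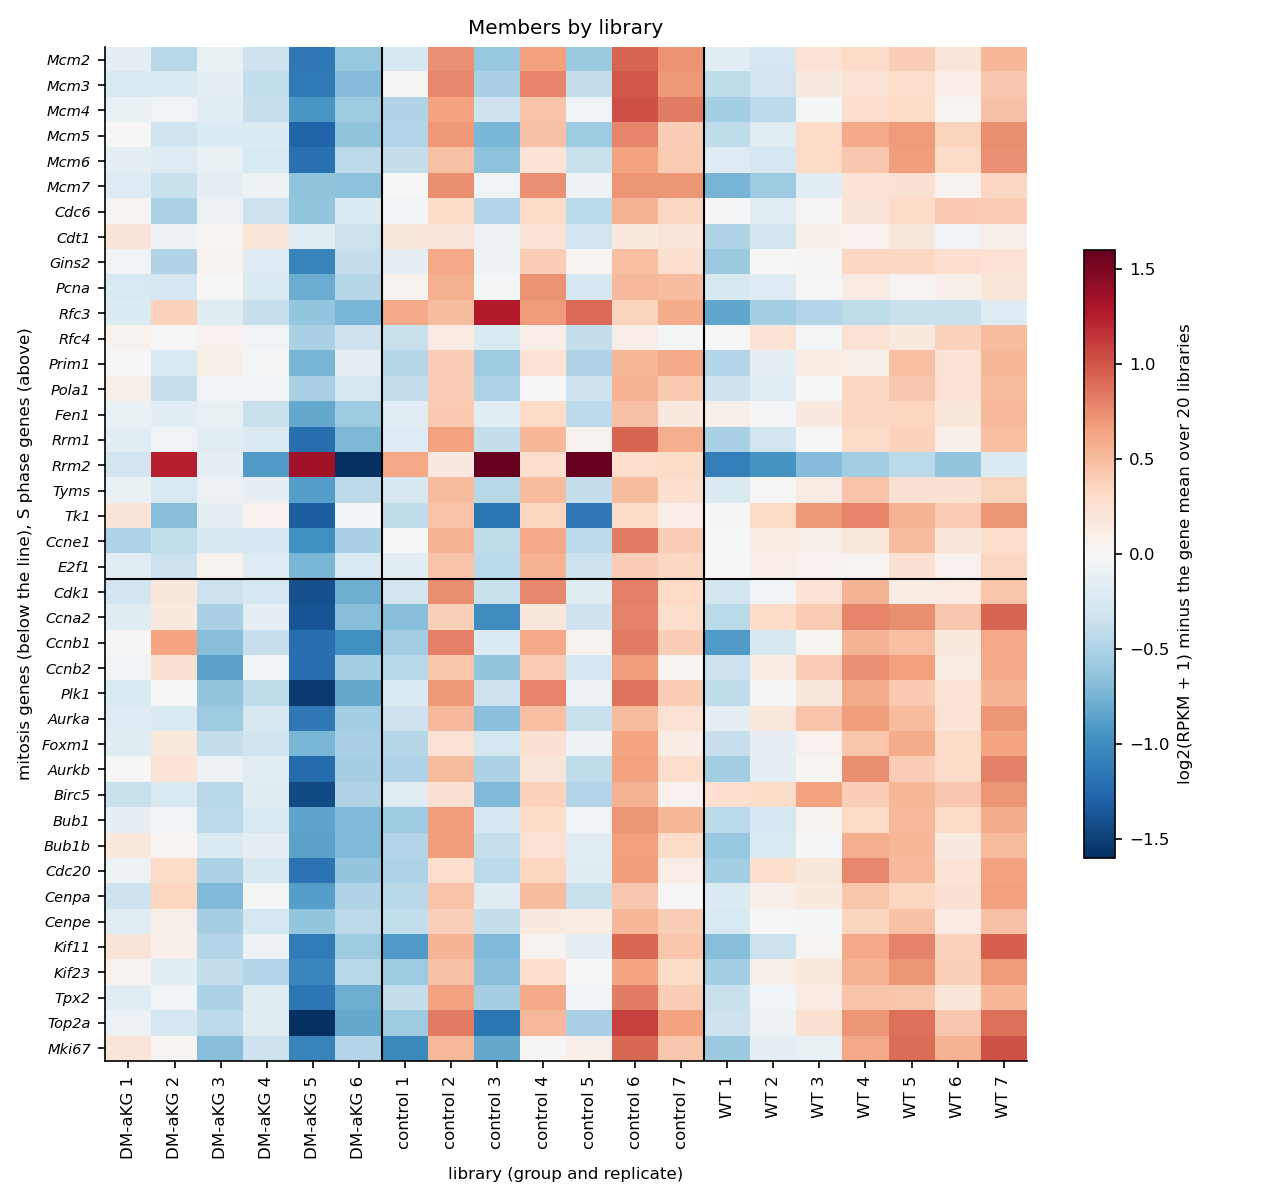
Each row is 1 of the 40 genes and each column 1 of the 20 libraries, named by group and replicate; colour gives log2(RPKM + 1) minus that gene's mean over the 20 libraries, with values past 1.6 in either direction shown in the end colours. Some columns lean the same way in most rows: DM-aKG replicate 5 is low, control replicate 6 and WT replicate 7 are high, and Rfc3 and Rrm2 stand out from their neighbours. Others differ between the sets, such as DM-aKG replicate 3, with the highest S phase mean of its group (2.39) but a mitosis mean of 1.94.

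Within a group the same few libraries were the lowest or the highest for most genes. DM-aKG replicate 5 was the lowest of its group in 36 of 40 genes and DM-aKG replicate 6 in the other 4. WT replicate 1 was the lowest WT library in 35 genes, and control replicates 3 and 1 were the lowest control libraries in 21 and 11. The highest library was control replicate 6 in 27 genes and WT replicate 7 in 27, while in DM-aKG it was split over replicates 2, 1 and 3 (15, 12 and 10 genes). The mean over S phase genes lay between 1.72 and 2.39 in DM-aKG, 2.26 and 3.06 in control and 2.13 and 2.86 in WT libraries, on the log2(RPKM + 1) scale. The mean over mitosis genes lay between 1.28 and 2.51 in DM-aKG, 1.90 and 3.15 in control and 2.03 and 3.11 in WT libraries. The DM-aKG range overlapped both other ranges for each set. Control libraries formed 2 groups: replicates 1, 3 and 5 had S phase means of 2.35, 2.26 and 2.28 and mitosis means of 1.93, 1.90 and 2.25. Control replicates 2, 4, 6 and 7 had S phase means of 2.90 to 3.06 and mitosis means of 2.73 to 3.15. DM-aKG replicates 1 to 4, with S phase means of 2.26 to 2.39 and mitosis means of 1.94 to 2.51, were level with or above the low control group. The S phase mean minus the mitosis mean was 0.16 ± 0.26 in DM-aKG, 0.14 ± 0.19 in control and -0.14 ± 0.14 in WT libraries (mean ± SD, n = 6, 7 and 7), so that on average the S phase mean was the higher one in both Apc Min groups and the mitosis mean in WT. This difference is a description, with no test, and single libraries went the other way (DM-aKG replicate 2 at -0.21, control replicate 6 at -0.10 and WT replicate 1 at 0.11).

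**Figure D2:**
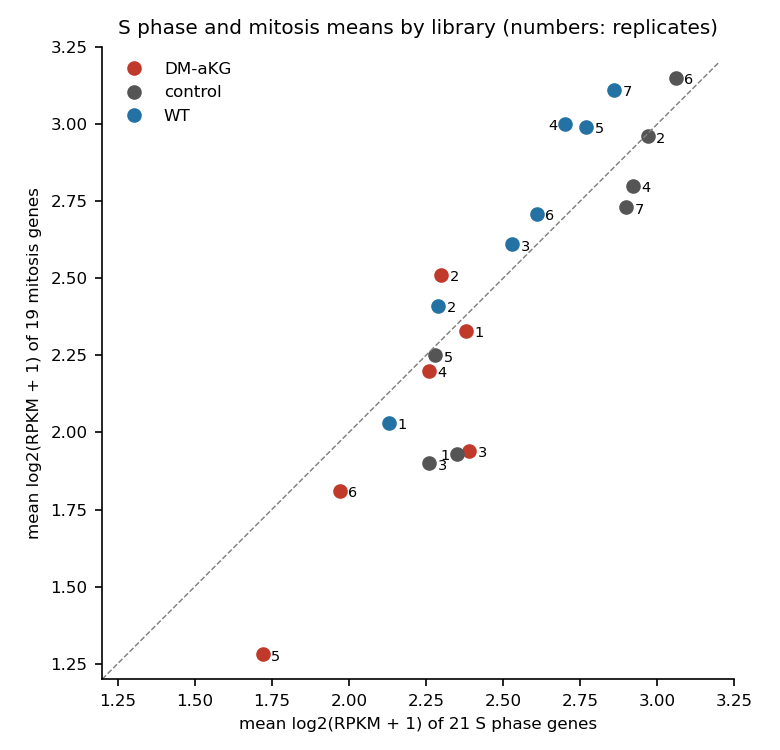
Each point is 1 library, with the mean log2(RPKM + 1) of the 21 S phase genes on the x axis and of the 19 mitosis genes on the y axis; the number is the replicate and the dashed line marks equal means. The 2 means rise together over the libraries, DM-aKG replicate 5 is the lowest on both axes (1.72 and 1.28), and 6 of the 7 WT points lie above the line.

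DM-aKG against control asks how the treatment moved these genes in Apc Min intestine. Of the 21 S phase genes 10 fell and 0 rose, with a median log2 change of -0.53, and of the 19 mitosis genes 6 fell and 0 rose, with a median of -0.44. Each gene was tested with limma on log2(RPKM + 1) over all 12433 genes, with Benjamini-Hochberg adjustment and a call under an adjusted p of 0.05. In the same fit 27.6% of all genes were called lower and 5.91% higher, and the median of all genes was -0.14. The share called lower was therefore 47.6% for S phase genes and 31.6% for mitosis genes, and the mitosis share was close to the background. Relative to the median of all genes the 2 medians were -0.38 and -0.30. The estimate was below 0 for all 40 genes, where it was for 8490 of all 12433 genes. The estimates of Cdt1, Rfc4 and Tk1 turned positive under median-of-ratios scaling and quantile normalization, and 8 estimates (Rfc4, Prim1, Pola1, Tk1, Ccna2, Aurkb, Kif11 and Mki67) were above 0 in the fit of replicates 1 to 4 alone. Over all alternatives 9 of the 40 genes turned positive in at least 1, in no case with a call. All 6 DM-aKG libraries lay below the control median in 16 of 21 S phase genes and 11 of 19 mitosis genes. The share of all genes for this count was not computed, so it is a description of the members only.

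The licensing genes load and drive the helicase that opens replication origins. Of the 9, 5 fell: Mcm2, Mcm3, Mcm4 and Mcm7, subunits of the MCM helicase ring, and Gins2, a subunit of the GINS complex that activates it. Mcm7 had a lowest, median and highest level of 5.08, 6.9 and 8.06 RPKM in DM-aKG libraries, against 8.09, 14.6 and 15.0 RPKM in control libraries. All 6 DM-aKG libraries lay below the lowest control library, and Mcm7 was the only member whose groups did not overlap (8.19% of all genes were lower without overlap and 0.732% were higher). Its log2 change was -0.74 ± 0.20 (SE), with an adjusted p of 0.00673 in limma. Mcm3 had 1.97, 4.22 and 4.89 RPKM in DM-aKG libraries, against 3.54, 9.5 and 12 RPKM in control libraries, a log2 change of -0.81 ± 0.24 (limma adjusted p = 0.0124). The Mcm3 groups overlapped because control replicates 3 and 5 were low, at 3.54 and 4.0 RPKM. Gins2 had 0.639, 1.81 and 2.58 RPKM in DM-aKG libraries, against 2.12, 3.1 and 4.25 RPKM in control libraries, and changed by -0.58 ± 0.18 (limma adjusted p = 0.0173); 4 of 6 DM-aKG libraries were below the lowest control library. Mcm2 and Mcm4 changed by -0.69 and -0.66 (limma adjusted p = 0.0384 and 0.0355). The calls of Mcm2 and Mcm4 each ended when any 1 of 7 libraries was left out, and that of Gins2 ended without DM-aKG replicate 5 (adjusted p = 0.0531). Mcm5 and Mcm6, other ring subunits, had estimates of -0.53 and -0.44 that did not pass (0.14 and 0.147), as did Cdc6 (-0.37, 0.0878), and Cdt1, the loader that geminin holds in check, had -0.10 with a 95% interval of -0.36 to 0.15.

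**Figure D3:**
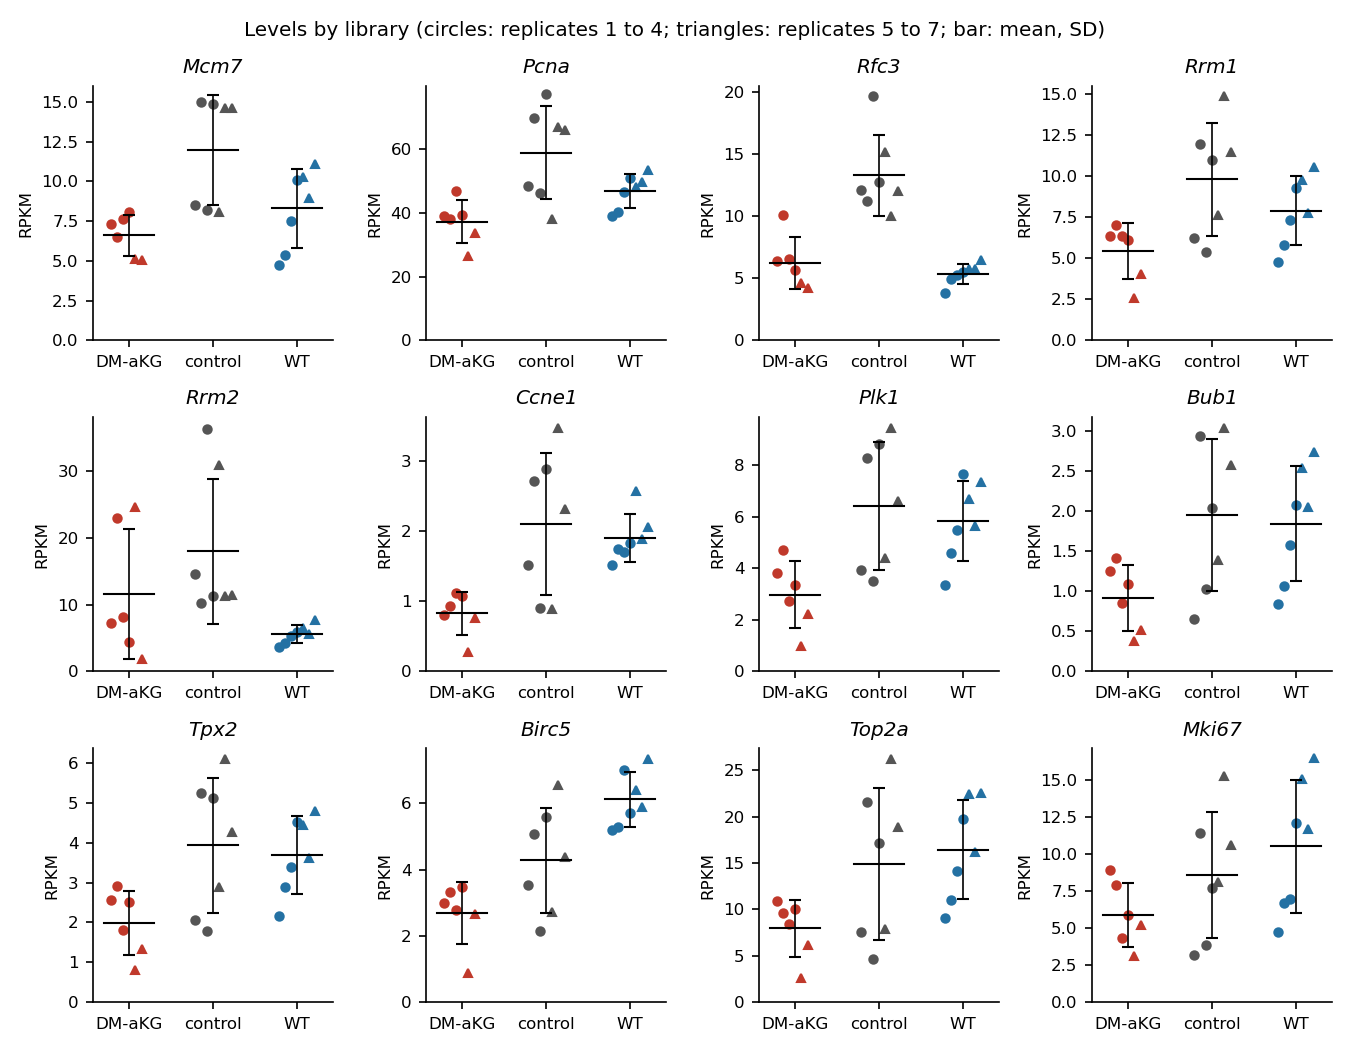
Each panel shows 1 of 12 genes in RPKM by group, with a point for each library (circles for replicates 1 to 4, triangles for replicates 5 to 7) and a bar at the mean with the SD; each y axis starts at 0. The 6 DM-aKG points of Mcm7 sit between 5.08 and 8.06 RPKM, below all 7 control points, while for Mki67 the DM-aKG points lie inside the control range apart from replicate 5.

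The fork genes copy DNA once origins have fired, and 3 of the 6 fell. Rfc3, a subunit of the clamp loader RFC, had 4.21, 6.04 and 10.1 RPKM in DM-aKG libraries, against 10, 12.1 and 19.7 RPKM in control libraries. Only DM-aKG replicate 2, at 10.1 RPKM, reached the lowest control library, replicate 6 at 10 RPKM. The log2 change was -0.99 ± 0.16, and its limma adjusted p of 8.08e-05 was the smallest of the 40. Pcna had 26.4, 38.5 and 46.8 RPKM in DM-aKG libraries, against 38.1, 65.8 and 77.1 RPKM in control libraries, a log2 change of -0.63 ± 0.15 (limma adjusted p = 0.00361). All 6 DM-aKG libraries were below the control median, and replicates 5 and 6 were below the lowest control library. Fen1, the flap nuclease that trims Okazaki fragments, changed by -0.45 ± 0.15 (adjusted p = 0.0247), a call that ended without DM-aKG replicate 5 (0.0732), DM-aKG replicate 6 (0.0581), control replicate 2 (0.054) or control replicate 6 (0.0548). Rfc4, another RFC subunit, had an estimate of -0.038 with a 95% interval of -0.29 to 0.21, so that the 2 clamp loader genes stood at opposite ends of the fork set. The primase subunit Prim1 and the catalytic polymerase alpha subunit Pola1 had -0.21 each and did not pass (adjusted p = 0.464 and 0.381).

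Among the 4 genes of nucleotide supply only Rrm1 was called. Rrm1, the large subunit of ribonucleotide reductase, had 2.61, 6.24 and 7.04 RPKM in DM-aKG libraries, against 5.42, 11.0 and 14.9 RPKM in control libraries, and changed by -0.74 ± 0.23 (limma adjusted p = 0.0161). Replicates 5 and 6 were below the lowest control library and the other 4 DM-aKG libraries lay within the control range, and the call ended when DM-aKG replicate 5 was left out (adjusted p = 0.0505). Rrm2, the small subunit of the same enzyme, had 1.91, 7.68 and 24.6 RPKM in DM-aKG libraries, against 10.2, 11.4 and 36.3 RPKM in control libraries. Its high values were in DM-aKG replicates 5 and 2 (24.6 and 23.0 RPKM) and control replicates 3 and 5 (36.3 and 30.8 RPKM), of which DM-aKG replicate 5 and control replicate 3 were low for most other members. The estimate of -0.83 ± 0.41 did not pass (adjusted p = 0.13), and without DM-aKG replicate 5 it was -1.12 and was called (adjusted p = 0.0414). Tyms, which makes thymidylate, had -0.41 (adjusted p = 0.084), and Tk1, which salvages thymidine, had -0.10 with a 95% interval of -0.69 to 0.48.

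Of the 2 regulators of S phase entry, Ccne1 was called. Ccne1, the cyclin E1 that activates CDK2, had 0.283, 0.861 and 1.12 RPKM in DM-aKG libraries, against 0.881, 2.31 and 3.46 RPKM in control libraries. All 6 DM-aKG libraries were below the control median and 3 were below the lowest control library, and the log2 change was -0.71 ± 0.18 (limma adjusted p = 0.00529). The factor E2f1 had 0.19, 0.689 and 1.05 RPKM in DM-aKG libraries, against 0.46, 1.48 and 1.9 RPKM in control libraries, and its estimate of -0.38 ± 0.16 did not pass (adjusted p = 0.0637).

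The mitotic entry genes held 3 of the 6 mitosis calls. Plk1, the Polo-like kinase of mitotic entry and spindle assembly, had 0.982, 3.04 and 4.73 RPKM in DM-aKG libraries, against 3.52, 6.61 and 9.46 RPKM in control libraries. DM-aKG libraries other than replicates 1 and 2 lay below the lowest control library, and the change was -0.90 ± 0.24 (limma adjusted p = 0.0071). Cdk1, the kinase that starts mitosis, had 1.35, 3.96 and 6.04 RPKM in DM-aKG libraries, against 3.88, 6.78 and 9.91 RPKM in control libraries, a change of -0.75 ± 0.24 (adjusted p = 0.0206, and 0.0632 without DM-aKG replicate 5). The 4 highest control libraries, replicates 6, 4, 2 and 7, stood above the DM-aKG range and the other 3 lay within it. Aurka, the Aurora kinase of the spindle poles, changed by -0.55 ± 0.21 (adjusted p = 0.0465), a call that ended when any 1 of 11 libraries was left out. The cyclins Ccnb1, Ccnb2 and Ccna2 had -0.70, -0.44 and -0.41 (adjusted p = 0.0756, 0.174 and 0.276), and Foxm1, the factor that drives many G2 genes, had -0.39 (0.113). Cyclin A2 also acts in S phase and is counted with mitosis here.

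Of the 5 genes for chromosomal passengers and the spindle checkpoint 1 fell. Bub1, a checkpoint kinase at kinetochores, had 0.383, 0.967 and 1.41 RPKM in DM-aKG libraries, against 0.659, 2.04 and 3.04 RPKM in control libraries, and changed by -0.58 ± 0.22 (limma adjusted p = 0.0424). The groups overlapped, with control replicate 1 at the low end, and the call ended when any 1 of 8 libraries was left out. Birc5, the passenger protein survivin, had -0.51 ± 0.20 (adjusted p = 0.0524). Bub1b, which makes the checkpoint protein BubR1, Cdc20, the activator of the anaphase-promoting complex, and Aurkb, the passenger kinase, had estimates of -0.41, -0.43 and -0.34 and did not pass (0.175, 0.163 and 0.327).

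Of the 5 genes for spindle and centromere 2 fell. Tpx2, the spindle factor that activates Aurora A, had 0.802, 2.17 and 2.9 RPKM in DM-aKG libraries, against 1.79, 4.26 and 6.1 RPKM in control libraries. The groups overlapped at control replicates 1, 3 and 5, and the change was -0.69 ± 0.23 (limma adjusted p = 0.0232, and 0.0696 without DM-aKG replicate 5, 0.0542 without DM-aKG replicate 6 and 0.0522 without control replicate 6). Cenpe, the kinetochore motor, changed by -0.44 ± 0.16 (adjusted p = 0.0437), a call that ended when any 1 of 11 libraries was left out. The centromeric histone Cenpa and the motors Kif23 and Kif11 had -0.40, -0.47 and -0.35 and did not pass (0.123, 0.126 and 0.392). Neither gene of chromosome structure was called: Top2a, the topoisomerase that untangles chromosomes, had -0.72 ± 0.35 (0.116) and Mki67, whose Ki-67 protein coats mitotic chromosomes and marks cycling cells, had -0.40 ± 0.31 (0.339). Mki67 had 3.1, 5.55 and 8.91 RPKM in DM-aKG libraries, against 3.21, 8.11 and 15.3 RPKM in control libraries.

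**Figure D4:**
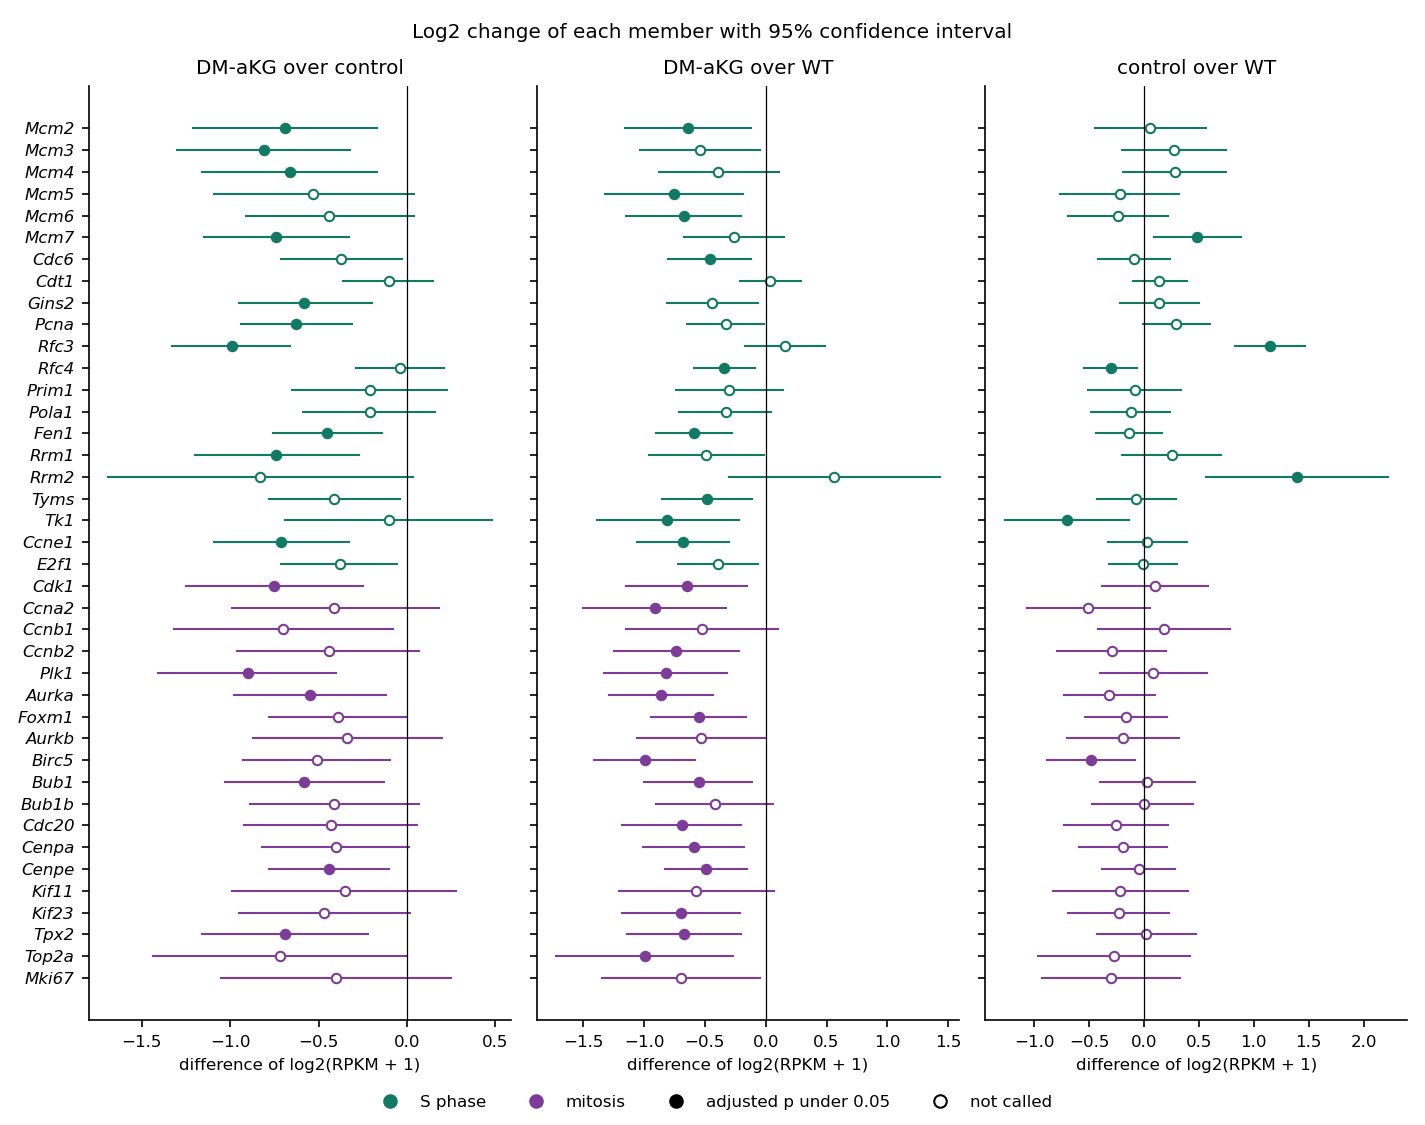
Each row is 1 of the 40 genes and each panel 1 comparison; the point is the log2 change on the log2(RPKM + 1) scale, the line its 95% confidence interval, and filled points passed an adjusted p of 0.05 in limma. For DM-aKG over control all points lie left of 0 and 16 are filled, for DM-aKG over WT 23 are filled and lie left of 0, and for control over WT the points scatter around 0 with Rfc3 (1.15) and Rrm2 (1.39) to the right.

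How firm these counts are depended on single libraries. Without DM-aKG replicate 5 the count of S phase genes called lower was 6 of 21, with a median of -0.36, and that of mitosis genes was 1 of 19, with a median of -0.33, while 23.1% of all genes were called lower. The count of mitosis genes was 2 without DM-aKG replicate 6 or control replicate 6, and 3 without DM-aKG replicate 3 or control replicates 2, 4 or 7, and it was 10 without DM-aKG replicate 2. Mcm3, Mcm7, Pcna, Rfc3, Ccne1 and Plk1 were called in all 20 fits that left out 1 library, and Pcna and Rfc3 in all 32 alternatives. Scaling moved the split of calls: 82.4% of all calls were lower as deposited, against 51.8% after quantile normalization and 57.4% after median-of-ratios scaling, which put the median of all genes at 0.021 and -0.001 in place of -0.14. Under both scalings 6 S phase genes (Mcm3, Mcm7, Pcna, Rfc3, Rrm1 and Ccne1) and 1 mitosis gene (Plk1) were called lower, 28.6% and 5.26% of the sets, where 14.8% of all genes were under each scaling.

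Markers of other cells moved beside these genes. All 13 smooth muscle genes rose in DM-aKG against control, and their summed level ranged over 1065 to 1829 RPKM in DM-aKG, 460 to 1554 RPKM in control and 1190 to 2036 RPKM in WT libraries. Of 12 epithelial genes 7 fell and 1 rose (summed level 2713 to 3764 RPKM in DM-aKG, 4034 to 5714 RPKM in control and 4336 to 6122 RPKM in WT). Of 12 crypt stem cell genes 8 fell and 0 rose in DM-aKG against control (summed level 73.0 to 179 RPKM in DM-aKG, 98.2 to 287 RPKM in control and 58.3 to 252 RPKM in WT), among them Lgr5, at 1.71 to 8.93 RPKM in DM-aKG and 3.64 to 28.0 RPKM in control libraries. Olfm4, another of the 12, had an estimate of 1.29 that was not called, with 5 of 6 DM-aKG libraries above the control median. With the average smooth muscle level of each library added to the fit 9 S phase genes and 2 mitosis genes (Plk1 and Birc5) were called lower, 42.9% and 10.5% of the sets, where 19% of all genes were. Smooth muscle level differed between DM-aKG and control, so this fit cannot separate it from treatment. Of 14 enterocyte genes 7 rose, and of 10 fibroblast genes 5 fell; their part in the result was not tested. Of 4 tested markers of germinal centre B cells, which divide in lymphoid follicles, 2 fell (Bcl6 and S1pr2) and 0 rose.

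DM-aKG against WT shares its DM-aKG libraries with the comparison above, so the 2 are not independent. Genotype and treatment both differ between DM-aKG and WT, so their parts cannot be told apart. Of the 21 S phase genes 9 fell (42.9%), and of the 19 mitosis genes 14 fell (73.7%), against 17.3% of all genes, and 0 of the 40 rose, against 21.9% of all genes. The medians were -0.44 and -0.67, and the median of all genes was 0.053. Groups did not overlap for Fen1, Ccne1, Aurka and Birc5, 4 of 40 genes, where 7.79% of all genes were lower without overlap, and 0 of 40 were higher without overlap, where 9.36% of all genes were. Every DM-aKG library lay below the WT median in 18 of 21 S phase genes and 14 of 19 mitosis genes, a count for which the share of all genes was not computed. Of the mitosis genes Ccnb1, Aurkb, Bub1b, Kif11 and Mki67 were not called.

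Birc5 had 0.896, 2.88 and 3.47 RPKM in DM-aKG libraries, against 5.19, 5.89 and 7.34 RPKM in WT libraries. Even the highest DM-aKG library was well below the lowest WT library, and the log2 change of -0.99 ± 0.20 had the smallest p of the 40 (limma adjusted p = 0.000823). Aurka had 1.19, 2.67 and 3.16 RPKM in DM-aKG libraries, against 3.37, 5.63 and 6.85 RPKM in WT libraries, a change of -0.86 ± 0.21 (adjusted p = 0.00305). The highest DM-aKG library, replicate 1, fell just short of WT replicate 1. Ccna2 had 3.09, 7.38 and 10.8 RPKM in DM-aKG libraries, against 6.87, 13.3 and 19.2 RPKM in WT libraries, a change of -0.91 ± 0.28 (adjusted p = 0.0151), and its groups overlapped at WT replicate 1. Top2a had 2.64, 9.04 and 10.9 RPKM in DM-aKG libraries, against 9.11, 16.2 and 22.5 RPKM in WT libraries, and changed by -0.99 ± 0.35 (adjusted p = 0.0292).

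Among S phase genes Fen1 had 2.7, 4.4 and 4.98 RPKM in DM-aKG libraries, against 5.35, 6.41 and 8.32 RPKM in WT libraries, a change of -0.59 ± 0.15 (limma adjusted p = 0.00451). Ccne1 had 0.283, 0.861 and 1.12 RPKM in DM-aKG libraries, against 1.52, 1.83 and 2.57 RPKM in WT libraries, a change of -0.68 ± 0.18 (adjusted p = 0.0067). Neither gene had a DM-aKG library within the WT range. Tk1 had 1.59, 5.09 and 6.46 RPKM in DM-aKG libraries, against 5.32, 8.51 and 10.1 RPKM in WT libraries, and changed by -0.81 ± 0.28 (adjusted p = 0.0288, and 0.089 without DM-aKG replicate 5). Mcm2, Mcm5, Mcm6, Cdc6, Rfc4 and Tyms were also called, with changes of -0.34 to -0.75. Rfc3 and Rrm2 were not: Rfc3 had 4.21, 6.04 and 10.1 RPKM in DM-aKG libraries, against 3.82, 5.49 and 6.47 RPKM in WT libraries (0.16, 95% interval -0.17 to 0.49), and Rrm2 had an estimate of 0.56 with a 95% interval of -0.30 to 1.43.

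These counts also moved with single libraries. Without DM-aKG replicate 5 the counts called lower against WT were 2 of 21 S phase genes and 4 of 19 mitosis genes, and 12.6% of all genes. The S phase count was 3 without WT replicate 7, 4 without WT replicates 5 or 6, and 5 without DM-aKG replicates 2 or 6 or WT replicates 3 or 4, and the mitosis count was 9 without WT replicate 7. Fen1, Ccne1, Ccna2, Plk1, Aurka and Birc5 were called in all 20 fits that left out 1 library, and 0 of the 23 calls held in all 32 alternatives. The counts were 14 and 17 after quantile normalization, where 19.7% of all genes were called lower, and 14 and 15 after median-of-ratios scaling, where 22.4% were; the share of calls that were lower was 44.1% as deposited, 50.8% after quantile normalization and 55.1% after median-of-ratios scaling. Markers of other cells moved both ways. All 8 endothelial genes were higher in DM-aKG than in WT (median 0.74), with summed levels of 38.0 to 56.1 RPKM in DM-aKG and 13.8 to 31.4 RPKM in WT libraries. By contrast 6 of 6 tested T cell genes and 6 of 7 tested B and plasma cell genes were lower in DM-aKG than in WT, with summed levels of 3.07 to 9.51 RPKM in DM-aKG and 20.2 to 41.7 RPKM in WT libraries for T cells, and 143 to 279 RPKM in DM-aKG and 315 to 800 RPKM in WT libraries for B and plasma cells. Their part in the result was not tested.

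Control against WT asks how the Apc Min samples differ from wild type without DM-aKG. The control mice had the control treatment and the WT mice were untreated, so genotype and control treatment cannot be told apart here. Most of the 40 genes did not pass: 3 S phase genes rose, 2 S phase genes and 1 mitosis gene fell, and the rest were not called, where 43.2% of all genes rose and 15.7% fell. The medians were 0.03 for S phase genes and -0.19 for mitosis genes, below the median of all genes of 0.20 (-0.17 and -0.39 relative to it). Rfc3 had 10, 12.1 and 19.7 RPKM in control libraries, against 3.82, 5.49 and 6.47 RPKM in WT libraries. All 7 control libraries were above all 7 WT libraries, and the change was 1.15 ± 0.15 (limma adjusted p = 3.31e-06), called in all 32 alternatives. Rrm2 had 10.2, 11.4 and 36.3 RPKM in control libraries, against 3.69, 5.56 and 7.68 RPKM in WT libraries. It too had no overlap, with most of its spread from control replicates 3 and 5, and changed by 1.39 ± 0.40 (adjusted p = 0.0056, and 0.364 with the smooth muscle covariate). Rfc3 and Rrm2 were 2 of 40 genes higher without overlap, where 20.4% of all genes were, and 0 of 40 were lower without overlap, where 5.73% of all genes were.

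The third gene that rose was Mcm7, with 8.09, 14.6 and 15.0 RPKM in control libraries, against 4.73, 8.98 and 11.1 RPKM in WT libraries (0.48 ± 0.19, limma adjusted p = 0.0344). As with the means over each set, its control libraries formed a high group of 4 and a low group of 3, replicates 1, 3 and 5. The low group lay among the WT libraries, and the call ended when any 1 of 7 libraries was left out. Tk1 had 1.88, 5.96 and 7.91 RPKM in control libraries, against 5.32, 8.51 and 10.1 RPKM in WT libraries, a change of -0.70 ± 0.27 (adjusted p = 0.0313). Birc5 had 2.14, 4.38 and 6.54 RPKM in control libraries, against 5.19, 5.89 and 7.34 RPKM in WT libraries, a change of -0.48 ± 0.19 (adjusted p = 0.0362). Rfc4 changed by -0.30 ± 0.12 (adjusted p = 0.0306), so that the clamp loader genes Rfc3 and Rfc4 differed in direction. The calls of Tk1 and Birc5 each ended when any 1 of 6 libraries was left out and that of Rfc4 when any 1 of 5 was, among them control replicates 1, 3 and 5 and WT replicate 7 for all 3 genes. The 3 calls also ended with the smooth muscle covariate (limma adjusted p = 0.71, 0.602 and 0.422). That covariate itself differed between control and WT, so its fit cannot separate muscle level from group, for Rrm2 as well. All 13 smooth muscle genes were lower in control than in WT, with the summed levels given above. So were 6 of 6 tested T cell genes (median -1.58), 6 of 7 tested B and plasma cell genes (median -1.47) and 7 of 14 enterocyte genes, while 8 of 12 crypt stem cell genes (median 1.62), 7 of 10 fibroblast genes and 5 of 8 endothelial genes were higher. Going the other way, 1 enterocyte gene was higher, and 1 fibroblast gene and the crypt stem cell gene Olfm4 (-1.87) were lower. Their part in the result was not tested. Scaling split the calls of all genes evenly: 26.6% of calls were lower as deposited, 50.4% after quantile normalization and 50.7% after median-of-ratios scaling. The mitosis genes called lower numbered 8 (42.1%) after quantile normalization, where 26.8% of all genes were called lower. They numbered 3 (15.8%) after median-of-ratios scaling, where 27.3% of all genes were. Mcm7 was not called under either scaling (adjusted p = 0.22 and 0.204), while Rfc3 and Rrm2 were. The estimates of Mcm2, Cdt1, Gins2, Ccne1, Cdk1, Ccnb1, Plk1, Bub1 and Tpx2 were above 0 as deposited and below 0 under both scalings, without a call in any of these fits. For the main marker of cycling cells, Mki67, the estimate was -0.30 ± 0.30, with a 95% interval of -0.93 to 0.33.

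Replicates 1 to 4 and 5 to 7 form 2 sets that differ in the ribosomal transcript Rn45s in every group, a division that was chosen after those values were seen. Each set holds all 3 groups, 12 libraries in replicates 1 to 4 and 8 in replicates 5 to 7, and DM-aKG has replicates 5 and 6 in the second set. DM-aKG over control had a median over S phase genes of -0.27 within replicates 1 to 4 (2 of 21 called lower, Pcna and Rfc3, where 14.6% of all genes were) and -0.97 within replicates 5 to 7 (7 called, where 22.4% of all genes were). The median over mitosis genes was -0.15 within replicates 1 to 4 (0 of 19 called) and -1.10 within replicates 5 to 7 (15 called). Mki67 had 0.14 within replicates 1 to 4 and -1.25 within replicates 5 to 7, Kif11 had 0.19 and -1.25, and Top2a had -0.15 and -1.72. Rfc3 was called within each set, with -0.87 and -1.29. The difference between the sets was below 0 in 40 of 40 genes and had an unadjusted p under 0.05 in 18, where 11.7% of all genes did, but in the limma interaction fit 0 of the 40 passed adjustment over all genes (lowest adjusted p = 0.351, Rrm1) and 26 genes of all those tested did (0.209%). For DM-aKG over WT the genes called lower within replicates 1 to 4 were 0 S phase genes and 1 mitosis gene, where 12% of all genes were, and within replicates 5 to 7 they were 2 S phase genes and 13 mitosis genes, where 2.81% of all genes were. The difference between the sets was there also below 0 in 40 of 40 genes, with an unadjusted p under 0.05 in 27 (6.32% of all genes) and 0 passing adjustment, among members or over all genes. The changes in replicates 5 to 7 rest on DM-aKG replicates 5 and 6 alone, the first of which was the lowest DM-aKG library in 36 of 40 genes.

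**Figure D5:**
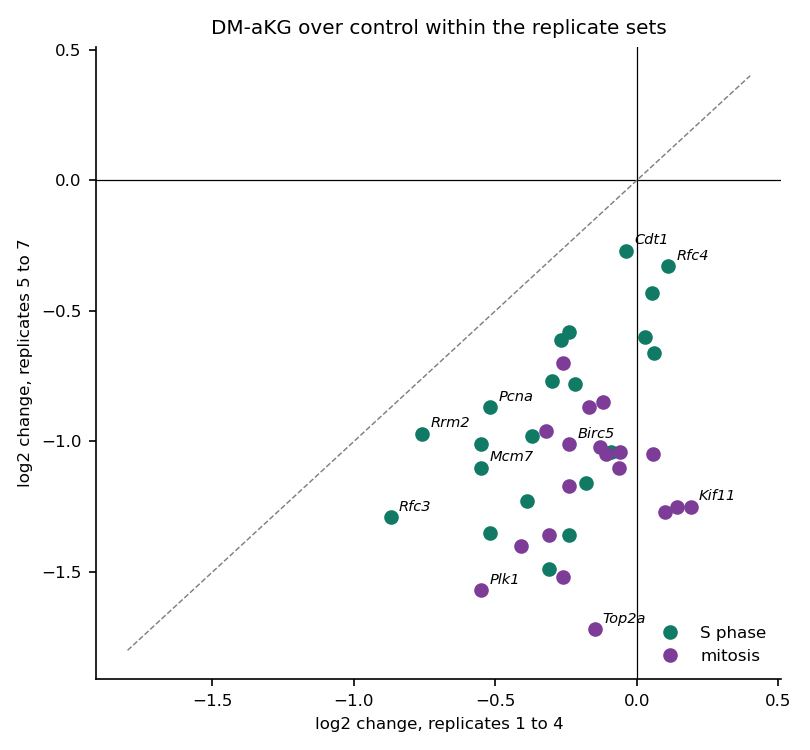
Each point is 1 gene, with its log2 change of DM-aKG over control within replicates 1 to 4 on the x axis and within replicates 5 to 7 on the y axis; the dashed line marks equal changes. All 40 points lie below the line, mitosis genes mostly near 0 on the x axis and around -1 on the y axis, and Rfc3, at -0.87 and -1.29, is the lowest on the x axis.

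Lists of other genes of the same pathways were tested in the same fit. Of 32 further replication genes tested 13 fell (40.6%) and 0 rose in DM-aKG against control, where 27.6% of all genes fell, with a median of -0.34, where that of all genes was -0.14. Gins1, the partner of Gins2 in the GINS complex, was at 1.09 ± 0.328 RPKM in DM-aKG and 2.53 ± 0.774 RPKM in control libraries (-0.74, limma adjusted p = 0.000413, groups without overlap). Chaf1b, a subunit of the histone chaperone CAF-1, was at 2.36 ± 0.677 RPKM in DM-aKG and 4.9 ± 1.08 RPKM in control libraries (-0.81, adjusted p = 0.00111), and Rpa3, of the single-strand binding protein RPA, and Pole, the leading strand polymerase, also fell (-0.62 and -0.75). Of 42 further mitosis genes tested 11 fell and 0 rose, with a median of -0.46; at 26.2% the share that fell was close to that of all genes. Cks1b, a small partner of cyclin-dependent kinases, was at 5.48 ± 2.28 RPKM in DM-aKG and 14.6 ± 4.56 RPKM in control libraries (-1.29, adjusted p = 0.000135). Mad2l1, the checkpoint protein MAD2, was at 4.5 ± 2.09 RPKM in DM-aKG and 10.3 ± 2.67 RPKM in control libraries (-1.08, adjusted p = 0.000769). Cks1b and Mad2l1 rose in control against WT (0.62 and 0.50, limma adjusted p = 0.0158 and 0.0454). They were the only 2 of the 42 further mitosis genes to rise there (4.76%), where 43.2% of all genes did, and the median of the 42 was -0.09. Of the 32 further replication genes 9 rose there, such as Orc6 and Gins4 (0.46 and 0.33), a share of 28.1% that was below the 43.2% of all genes, while 2 fell, among them Slbp, which binds the stem-loop of histone transcripts (-0.36). Of the 42 further mitosis genes only 2 fell there, Spc24 and Ube2c (-0.62 and -0.59), a share of 4.76%, where 15.7% of all genes fell. In DM-aKG against WT 11 further replication genes (34.4%) and 22 further mitosis genes (52.4%) fell and 0 rose, where 17.3% of all genes fell and 21.9% rose; among those that fell were Ube2c, the ubiquitin carrier of the anaphase-promoting complex (-1.18, adjusted p = 0.0014), and Cdca8, which makes the passenger protein borealin (-0.92, 0.00279).

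Among 16 tested E2F, pocket protein and MuvB factors 3 fell (18.8%, below the 27.6% of all genes) and 0 rose in DM-aKG against control. They were Mybl2, the B-Myb that joins MuvB at S phase (0.935 ± 0.366 RPKM in DM-aKG and 2.19 ± 0.707 RPKM in control; -0.71, limma adjusted p = 0.000818), E2f3, an activating E2F (2.38 ± 0.6 RPKM in DM-aKG and 4.33 ± 1.27 RPKM in control; -0.64, 0.00226), and Lin9, a core subunit of MuvB (-0.40, 0.0335). In control against WT 3 fell, the pocket protein gene Rb1 and the E2F genes E2f2 and E2f8 (-0.49, -0.53 and -0.65), and 4 rose, Lin37 and Lin54 of MuvB, Tfdp2 and E2f5 (0.30, 0.48, 0.31 and 0.20), which is 18.8% lower and 25.0% higher, where 15.7% of all genes fell and 43.2% rose. In DM-aKG against WT 5 fell (31.2%, where 17.3% of all genes did), among them E2f3 (-0.89, adjusted p = 0.000155), and 2 rose, the E2F partner Tfdp2 (0.52, 0.00248) and the pocket protein gene Rbl2 (0.36, 0.0287). The median of the 16 was -0.15 in DM-aKG against control, where that of all genes was -0.14.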

How the data were processed

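Total RNA of 20 libraries in 3 groups was sequenced with single reads. The deposited table holds RPKM values that the authors computed per gene symbol; CASAVA 1.8, HISAT2 2.0.4, Partek and build mm10 are named, per the submitters' processing notes, while annotation, strand and counting rule were not given in the sources used here. Of 24795 rows 4272 were 0 in all libraries and 26 gene names had been turned to dates. Counts were not recovered, because 68.2% to 74.5% of low values were whole multiples of a read within 0.1 reads, where 20.0% would be by chance spacing; depth is therefore an estimate. No pair of libraries was identical.

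The computed values are log2(RPKM + 1), which understates changes of low genes. Genes that reached 1 RPKM in 6 or more libraries were tested in 1 fit of all 3 groups with limma 3.58.1 in R 4.3.3 (trend and robust variance, statmod 1.5.0), adjusted by Benjamini-Hochberg over 12433 genes and called under 0.05. The fit was tested on simulated data for DM-aKG over control, with noise drawn separately for each gene, unlike the members, which moved together by library. It recovered 47.8% of planted log2 changes of 0.5 and 91.0% of those of 1.0, and 12 of its 170 calls were false. The simulation changed few genes and gave 170 calls, where the real fit called 3432 genes lower, so the simulated cutoff on p was stricter. Changes were also planted only in genes of higher level, which leaves out low members such as Cdc6 and E2f1. How often changes of the size seen in many members were missed in the real fit is therefore not known. Python 3.11.15, pandas 2.3.3, numpy 2.4.6 and matplotlib 3.10.9 made the tables and figures. Same-numbered libraries of 2 groups correlated between -0.457 and 0.604 in their deviations, and the labels name no shared source, so numbers were not taken as pairs. Genes are named in full by the smallest p within each role. The members, the gene lists and the replicate sets were chosen with earlier results of these data known. Alternatives changed the pseudocount, filter, scaling, weights, covariates and samples. Values of some listed genes that are not members are not reported here.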

Additional observations from a re-analysis of the deposited data

Results flagged for a closer look

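In 3 of 120 sets of values of 1 gene in 1 group, 1 library stood apart from the rest by more than the 95% limit of Dixon's test; chance flags about 1 in 20 such sets. Mcm6 was at 2.63 RPKM in DM-aKG replicate 5, where the next lowest DM-aKG library had 5.21 RPKM. Birc5 was at 0.896 RPKM in DM-aKG replicate 5, where the next lowest DM-aKG library had 2.67 RPKM. Gins2 was at 1.27 RPKM in WT replicate 1, where the next lowest WT library had 2.43 RPKM.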

How the results depend on the processing

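No called value of a member changed direction under any of the 32 alternatives. For DM-aKG over control the S phase genes called lower numbered 6 after quantile normalization or median-of-ratios scaling, 16 with array weights and 2 in replicates 1 to 4 only. The mitosis genes called lower numbered 3 with no filter on low values, 1 after quantile normalization or median-of-ratios scaling, 2 with only the groups compared or the smooth muscle covariate, 13 with array weights, 0 in replicates 1 to 4 only and 15 in replicates 5 to 7 only. For this comparison the share of all genes called lower was 34.4% with array weights, 19.9% with no filter and 22.9% with only the groups compared. For DM-aKG over WT the S phase genes called lower numbered 14 with either scaling or array weights, 0 in replicates 1 to 4 only and 2 in replicates 5 to 7 only, and the mitosis genes called lower numbered 1 in replicates 1 to 4 only. With array weights 20.9% of all genes were called lower there. For control over WT the S phase genes called higher numbered 5 with array weights, 1 in replicates 5 to 7 only and 1 with the smooth muscle covariate. In the same fits, in that order, 46.5%, 30.1% and 23.6% of all genes were called higher. The S phase genes called lower numbered 4 after quantile normalization, 1 with array weights, and 0 in either replicate set or with the smooth muscle covariate. The mitosis genes called lower numbered 8 after quantile normalization, 3 after median-of-ratios scaling, and 0 with a pseudocount of 0.1, no filter, either replicate set or the smooth muscle covariate. Of all genes 26.8% were called lower there after quantile normalization, 27.3% after median-of-ratios scaling and 14.7% with array weights. The share was 15.6% with a pseudocount of 0.1, 12.1% with no filter and 4.61% with the smooth muscle covariate. Within replicates 1 to 4 it was 11.7% and within replicates 5 to 7 it was 9.18%. Over all genes the calls numbered 547 for DM-aKG over WT in replicates 5 to 7 only, 2225 for DM-aKG over control in replicates 1 to 4 only, and, with the smooth muscle covariate, 2585 in DM-aKG over control and 3504 in control over WT. The cause of these moves was not tested.

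With each library left out in turn, the genes called lower numbered 6 to 13 (S phase) and 1 to 10 (mitosis) for DM-aKG over control, 2 to 11 and 4 to 16 for DM-aKG over WT, and 0 to 2 and 0 to 2 for control over WT, where 2 to 4 S phase genes were called higher. For control over WT the S phase count of genes called lower was 0 without control replicates 1, 3 or 5 or WT replicate 7 and 1 without WT replicates 3, 4 or 6. The mitosis count there was 0 without control replicates 1, 3 or 5 or WT replicates 3, 5 or 7 and 2 without control replicate 6 or WT replicate 1. Calls over all genes numbered 3441 to 4574, 3802 to 5154 and 6800 to 7477 in DM-aKG over control, DM-aKG over WT and control over WT.

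With the replicate number as a block, the genes called lower numbered 8 (S phase) and 3 (mitosis) for DM-aKG over control, where 29.0% of all genes were. They numbered 6 and 13 for DM-aKG over WT, where 18.8% of all genes were called lower. The calls for control over WT stayed at 3 higher and 3 lower, where 45.6% of all genes were higher and 16.8% lower. The numbers did not pair the libraries by their correlations. Depth is an estimate, so precision at low RPKM is unknown.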
